A study of Mus musculus with 5 samples.

Results

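Genes of cholesterol and fatty acid synthesis were followed in mouse embryonic stem (ES) cells that carry a Satb1 transgene switched on by doxycycline. Of 34 named genes, 33 had a probe set with a single gene symbol, out of 19938 such genes on the array, and Acat2 was not analysed here. They were grouped by function and chosen with earlier results of these data known. They comprise 5 regulators, 15 enzymes of the sterol branch and 13 enzymes of the fatty acid and desaturase branch. Where a gene had several probe sets, the one with the highest mean level represented it. The main difference in this set lay in the stearoyl-CoA desaturase genes Scd2 and Scd1, the enzymes that put the first double bond into saturated fatty acids, which were 1.30-fold and 1.26-fold lower on the induced arrays, and in the sterol gene Fdps, 1.14-fold lower. No member passed the test over all genes.

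The study compared 2 arrays of uninduced tetO-Satb1 cells, labelled as control, with 3 arrays of the same kind of cells given doxycycline (DOX) for 24 h, labelled as Satb1 overexpression. Cells of both groups carry the transgene, although the series title calls the controls wild type, and both were harvested 48 h after passaging. The sample labels place the cells on irradiated feeder cells, with a settling step before RNA preparation meant to remove them, while the series text names LIF alone. The medium held 15% serum, a source of cholesterol and fatty acids. No cells without the transgene were given DOX, so an effect of DOX itself and one of Satb1 cannot be told apart. Nothing in the labels ties the arrays of a group to separate cultures or clones, and p-values here cover array-to-array spread that could be purely technical.

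Cells make cholesterol and fatty acids from acetyl-CoA by separate chains of enzymes. Both chains are under transcription factors of the SREBP family, which are made as membrane proteins of the endoplasmic reticulum. When sterols are scarce, the escort protein SCAP carries SREBP to the Golgi, where it is cut and released to the nucleus, and when sterols are ample, INSIG proteins hold the SCAP and SREBP complex back. The protein of Srebf2 mainly serves the sterol genes and that of Srebf1 mainly serves the fatty acid genes. Unsaturated fatty acids from the desaturases enter membrane lipids, cholesteryl esters and triglycerides.

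Promoter windows were examined for exact letters bound by SREBP or by some of its partners. RefSeq windows of assembly GRCm38.p6, each 300 bases long (250 before and 50 after a start site), were at hand for 28 of the 34 genes, in 38 windows. No window was listed for Fdps, Fdft1, Sqle, Scd1, Scd2 and Fads1. On both strands, the sterol regulatory element TCACNCCAC was in 1 of 38 member windows (2.63%) and in 1.24% of all 32851 windows. The CCAAT box, bound by NF-Y, was in 24 of 38 (63.2%) against 37.4% of all windows, and the E-box CACGTG was in 7 of 38 (18.4%) against 7.15%. The 2 windows of Scap overlap and share bases, as do 2 of the windows of Dhcr7, so windows are not independent. The sequences of Insig1, Nsdhl and Hmgcs1 are printed as examples, and Hmgcs1 has the only window with the sterol element. All 3 had their lowest level on induced array 3, as 12 of the 33 members did (36.4%, against 15.2% of all genes). Capitals mark the sterol element, the CCAAT box and the E-box on either strand, so a CCAAT box on the other strand reads ATTGG. The windows lie on the plus strand at chr5:28071162-28071461 (Insig1), chrX:72918271-72918570 (Nsdhl) and chr13:119690101-119690400 (Hmgcs1).
Insig1: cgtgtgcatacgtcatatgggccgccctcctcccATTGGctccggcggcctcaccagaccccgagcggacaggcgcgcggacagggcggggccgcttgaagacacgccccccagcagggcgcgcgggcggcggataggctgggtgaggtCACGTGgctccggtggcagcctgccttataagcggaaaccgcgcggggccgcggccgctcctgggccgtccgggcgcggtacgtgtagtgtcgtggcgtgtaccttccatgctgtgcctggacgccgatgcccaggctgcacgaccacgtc
Nsdhl: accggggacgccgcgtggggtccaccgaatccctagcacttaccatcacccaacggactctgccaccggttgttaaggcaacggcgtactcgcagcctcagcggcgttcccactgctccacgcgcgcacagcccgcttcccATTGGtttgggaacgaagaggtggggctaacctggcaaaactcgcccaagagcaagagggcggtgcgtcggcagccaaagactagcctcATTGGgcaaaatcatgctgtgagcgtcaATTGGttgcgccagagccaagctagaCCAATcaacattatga
Hmgcs1: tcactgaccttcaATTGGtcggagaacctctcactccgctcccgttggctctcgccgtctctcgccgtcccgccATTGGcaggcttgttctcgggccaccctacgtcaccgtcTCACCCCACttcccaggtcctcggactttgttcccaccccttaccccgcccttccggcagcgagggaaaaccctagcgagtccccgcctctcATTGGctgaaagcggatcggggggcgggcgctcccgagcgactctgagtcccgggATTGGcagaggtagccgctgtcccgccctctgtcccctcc
The Insig1 window holds 1 CCAAT box and 1 E-box, that of Nsdhl 4 CCAAT boxes, and that of Hmgcs1 1 sterol element and 4 CCAAT boxes. A match describes the letters of a window and does not show binding. Only these exact letters were searched, so a gene without a match is not shown to lack a site. SATB1 binds AT-rich DNA. The share of A and T in the member windows had a median of 38.2% (25.3% to 60.3%), against a median of 47.3% over all windows. Binding of SATB1 was not tested, and these windows do not include Scd1, Scd2 and Fdps.

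The labels and the state of the arrays were checked first. Satb1 was at 4.95 and 5.34 on the uninduced and at 8.61, 8.79 and 8.68 on the induced arrays (log2 level), 11.7-fold higher. Satb1 itself did not pass the limma test over all genes (adjusted p = 0.229) and passed with the larger prior spread described below (adjusted p = 0.0038), so a gene that did not pass is not shown to be unaltered. Over all alternatives its adjusted p lay between 0.000534 and 0.693. All 10 ES cell markers, such as Pou5f1 and Sox2, lay above the median level of all genes, and 0 of 10 hepatocyte and adipocyte markers did. Of 29 feeder fibroblast markers 16 lay above it, at levels up to 8.46, so feeder RNA is not shown to be absent. The mean of the feeder markers was 5.360 and 5.370 on the uninduced and 5.371, 5.386 and 5.387 on the induced arrays. It was thus higher on every induced array than on both uninduced arrays, though narrowly: uninduced array 2 was at 5.3701 and induced array 1 at 5.3708. Of these 29 markers, 16 had a higher, 10 a lower and 3 the same mean in induced cells. Without overlap, 0 were higher and 1 was lower (3.45%), against 1.65% and 3.08% of all genes. In bulk RNA, fewer cells of a type and less RNA per cell cannot be told apart. Values were often exactly equal between arrays: 3 of the 33 members had 1 value on all 5 arrays, and 8 had 5 distinct values.

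Of the 33 members, 22 (66.7%) had a lower mean in induced cells, 8 a higher mean and 3 the same, where 45.3% of all genes had a lower and 39.6% a higher mean. The median log2 difference was -0.02 over the members and 0 over all genes. In limma over all genes 0 members passed an adjusted p of 0.05, as 0.0150% of all genes did (0.00502% lower and 0.0100% higher). At an unadjusted p under 0.05 there were 3 lower members, Scd2, Scd1 and Fdps, and 0 higher ones, against 1.07% and 0.481% of all genes. These 3 genes were also the members whose induced arrays all lay below both uninduced arrays (3.08% of all genes did), and 0 members lay above on all induced arrays (1.65% of all genes did). When limma's prior spread was taken from the 1800 genes with 5 distinct values (the shared spread below), again 0 members passed, against 0.00502% of all genes, and Scd2, Scd1 and Fdps were the lower members with an unadjusted p under 0.05, with 0 higher ones, against 0.772% and 0.301% of all genes. The number of members without overlap depended on scaling and on single arrays. It was 4 lower and 0 higher on arrays centred on their medians (5.55% and 3.35% of all genes), and 8 lower and 5 higher after quantile normalization was applied again (8.35% and 10.9%). Without induced array 1 it was 7 lower and 0 higher (5.34% and 3.13%), the added genes being Insig1, Hmgcs1, Nsdhl and Fdft1. Without uninduced array 1 it was 18 lower and 3 higher (18.2% and 12.8%), and without uninduced array 2 it was 8 and 8 (14.9% and 14.5%).

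**Figure D1:**
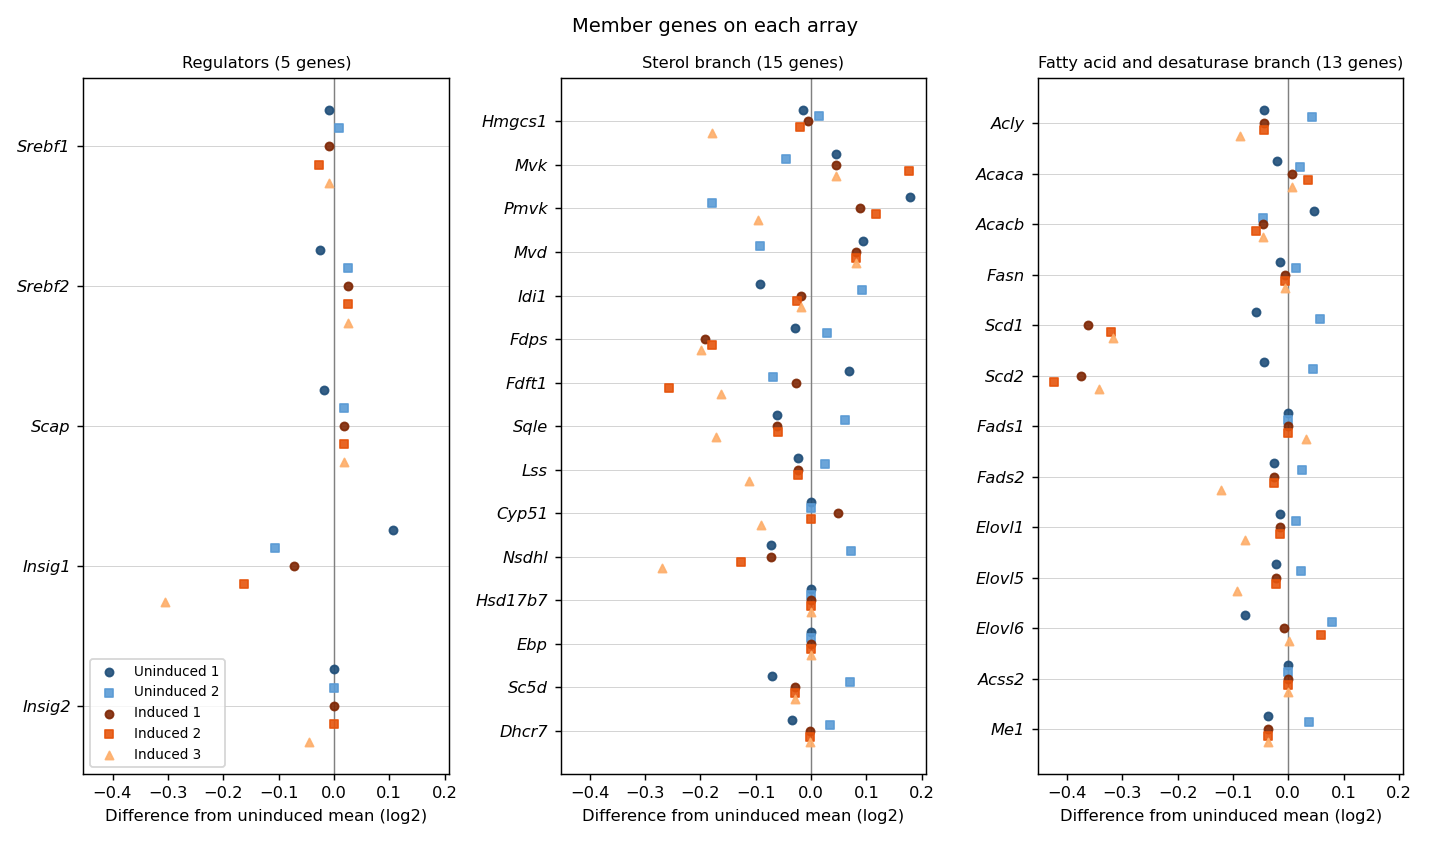
Difference of each array from the uninduced mean (log2, horizontal axis) for the 33 member genes in 3 panels, with 1 symbol per array, set slightly apart within a row so that equal values show. In Scd1, Scd2 and Fdps all 3 induced arrays lie to the left of both uninduced arrays, and in the other members the groups overlap or touch.

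Among the regulators, Insig1 had the largest difference and the other 4 differed by at most 0.03 in size. Srebf1 was at 6.22 and 6.24 on the uninduced and 6.22, 6.20 and 6.22 on the induced arrays, a log2 difference of -0.01 (95% interval with the shared spread -0.15 to 0.12). Srebf2 was at 7.69 and 7.74 on the uninduced and at 7.74 on each of the induced arrays, a difference of 0.03 (interval -0.11 to 0.16). Both SREBP genes thus had induced values that touched or overlapped the uninduced ones. Scap, the escort gene, was at 6.66 and 6.70 against 6.70 on all 3 induced arrays, a difference of 0.02. Insig2, which encodes one of the retention proteins, was at 6.65 on every array except induced array 3, at 6.60.

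Insig1, the other retention gene and itself a known SREBP target, was at 8.47 and 8.26 on the uninduced and at 8.30, 8.20 and 8.06 on the induced arrays. Its difference of -0.18 (standard error 0.11, unadjusted p = 0.189 and adjusted p = 0.770 in limma) was close to the spread of the uninduced arrays, and induced array 1 lay between them. The difference was -0.07 without uninduced array 1 and -0.287 without uninduced array 2. It was -0.234 without induced array 1 and -0.12 without induced array 3, and with the feeder marker mean as a covariate it was 0.04. The feeder marker mean was higher on every induced array than on both uninduced arrays, so that fit cannot tell feeder RNA and induction apart. The part of feeder RNA in the difference was not tested.

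The early enzymes of the sterol branch had no common direction. Hmgcs1, which makes HMG-CoA, was at 8.04 and 8.07 on the uninduced arrays. Its induced values were 8.05, 8.03 and 7.87, and induced array 3 stood apart. Mevalonate kinase (Mvk) was at 5.61 and 5.52 against 5.61, 5.74 and 5.61, a difference of 0.09 (standard error 0.06). Mevalonate diphosphate decarboxylase (Mvd) was at 6.82 and 6.64 against 6.81 on each induced array, a difference of 0.08 whose size came from uninduced array 2 alone. Phosphomevalonate kinase (Pmvk) had the widest uninduced values of the branch, 6.32 and 5.97, with induced arrays between them at 6.23, 6.26 and 6.05. The isomerase gene Idi1 differed by -0.02, and its second probe set by -0.04.

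Fdps, which encodes farnesyl diphosphate synthase, was the sterol gene with the largest difference. It was at 7.40 and 7.45 on the uninduced and at 7.23, 7.25 and 7.23 on the induced arrays. The groups did not overlap, and the induced arrays lay within 0.02 of each other. The log2 difference was -0.19 with a standard error of 0.02 (unadjusted p = 0.0017 and adjusted p = 0.770, limma), and with the shared spread the 95% interval was -0.33 to -0.05 (adjusted p = 1). Among the 19938 genes, 372 had a more negative difference. It lay between -0.22 and -0.16 over the 14 alternatives, and it passed without uninduced array 1 or 2 (adjusted p = 0.0116 and 0.0225), in fits with a lone uninduced array in which 9.93% of all genes passed.

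The next enzymes overlapped between groups. Squalene synthase (Fdft1), which commits farnesyl units to sterols, was at 8.45 and 8.32 against 8.36, 8.13 and 8.22, a difference of -0.15 (standard error 0.09). Its second probe set had a difference of -0.08. Squalene epoxidase (Sqle) was at 7.30 and 7.42 against 7.30, 7.30 and 7.19, a difference of -0.10 (standard error 0.06). Nsdhl, a sterol dehydrogenase that helps remove methyl groups, was at 6.998 and 7.14 against 6.998, 6.94 and 6.80, a difference of -0.16 (standard error 0.09). In all 3 genes induced array 1 lay within the uninduced values or at their lower edge. Single arrays of both groups moved the size: Sqle differed by -0.0607 without induced array 3 and by -0.0357 without uninduced array 2, and Nsdhl by -0.0991 and -0.0835. Fdft1 differed by -0.0945 without induced array 2 and by -0.0804 without uninduced array 1. With the feeder marker mean as a covariate the differences were 0.04 for Fdft1, -0.097 for Sqle and -0.105 for Nsdhl. Since that mean itself separates the groups, if narrowly, this fit cannot tell feeder RNA and induction apart.

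Apart from Nsdhl, the measured enzymes from lanosterol synthase onward differed by less than 0.06 in size. Lanosterol synthase (Lss) had a log2 difference of -0.05, the demethylase Cyp51 one of -0.01, and the desaturase gene Sc5d one of -0.03. Dhcr7, the last reductase of the chain, was at 6.74 and 6.81 against 6.78 on each induced array. Hsd17b7 and the isomerase gene Ebp each had 1 value on all arrays, which gives no view of a difference. Over the 15 sterol genes, 10 had a lower, 3 a higher and 2 the same mean, the median difference was -0.02, and 1 gene (6.67%) was lower without overlap, against 3.08% of all genes. Induced array 3 alone was the lowest array in 6 of the 15 genes (40.0%; 15.2% of all genes), and uninduced array 2 alone was the highest in 8 (53.3%; 16.8% of all genes). The mean of induced array 3 over the branch was 0.08 below the uninduced mean, against 0.01 and 0.02 below for induced arrays 1 and 2.

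The desaturase genes Scd2 and Scd1 had the largest differences of all members. Scd2, the form known for its expression in embryo and brain, was at 9.03 and 9.12 on the uninduced and at 8.70, 8.65 and 8.73 on the induced arrays. Its difference was -0.38 with a standard error of 0.04 (unadjusted p = 0.0016 and adjusted p = 0.770, limma; 95% interval with the shared spread -0.54 to -0.22, adjusted p = 1). Scd1, the form best known from liver and fat, was at 7.40 and 7.52 on the uninduced and at 7.10, 7.14 and 7.14 on the induced arrays. Its difference was -0.33 with a standard error of 0.04 (unadjusted p = 0.0028 and adjusted p = 0.770; interval -0.49 to -0.17, adjusted p = 1). In both genes the gap between the groups exceeded the spread within them, and 34 and 64 of the 19938 genes had more negative differences than Scd2 and Scd1.

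Scd1 and Scd2 kept their lower mean in all 14 alternatives, and calls were rare. Many of these alternatives could not have changed the sign. The groups did not overlap, so leaving out an array keeps the sign, and several other alternatives keep the difference itself. Over the 14 alternatives Scd2 lay between -0.424 and -0.335 and Scd1 between -0.411 and -0.275. Scd1 passed only without uninduced array 1 (adjusted p = 0.0244), in the fit with a lone uninduced array, and Scd2 passed in none (lowest adjusted p = 0.058, in the same fit). In the RefSeq gene table of GRCm38.p6, Scd3, Scd2, Scd4 and Scd1 follow each other on chromosome 19 with no other protein-coding gene between them. The neighbours Scd3 and Scd4 had differences of -0.02 and -0.07 and overlapped between groups. Which probes make up each set is not given in the sources used here, so a part of shared probes in the like values of Scd1 and Scd2 was not tested.

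**Figure D2:**
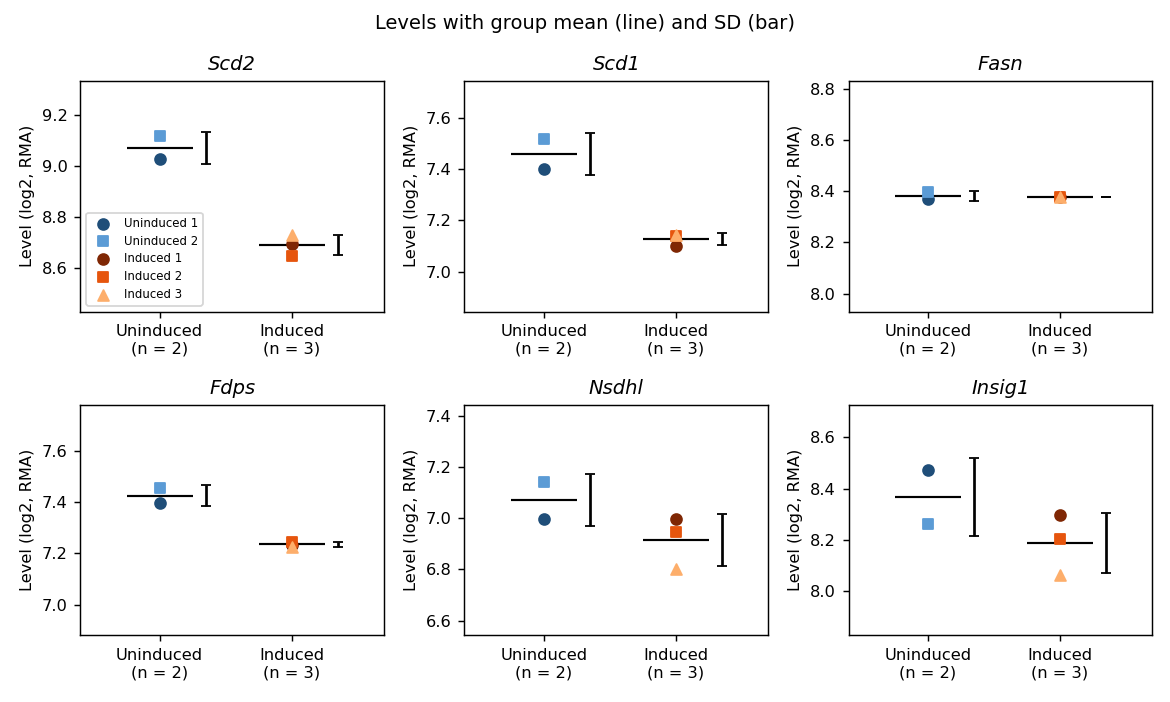
Log2 level of 6 member genes on the 2 uninduced and 3 induced arrays (points), with the group mean as a line and the SD as a bar beside it; all panels span 0.9 log2 units. Scd2, Scd1 and Fdps separate the groups, Fasn differs by -0.01, and in Nsdhl and Insig1 the groups overlap.

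The enzymes that make the carbon chain had small differences. Fatty acid synthase (Fasn) was at 8.37 and 8.40 on the uninduced and at 8.38 on each induced array, a difference of -0.01 with a 95% interval of -0.14 to 0.13 (shared spread). Acly, which makes cytosolic acetyl-CoA from citrate, was at 8.74 and 8.83 against 8.74, 8.74 and 8.70, a difference of -0.06. The acetyl-CoA carboxylase genes Acaca and Acacb differed by 0.02 and -0.05, and Acacb was at 4.87 and 4.78 against 4.78, 4.76 and 4.78. Acss2, which makes acetyl-CoA from acetate, had 1 value on all arrays, and the NADPH source Me1 differed by -0.04. The second probe sets of Acaca and Me1 both differed by 0.01 or less in size.

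The other desaturases and the elongases differed by 0.06 or less in size. Fads2, the delta-6 desaturase, was at 7.58 and 7.63 against 7.58, 7.58 and 7.48, a difference of -0.06 that came from uninduced array 2 and induced array 3. Its neighbour Fads1 was at 7.27 on all arrays except induced array 3, at 7.30. Elovl1, Elovl5 and Elovl6, which lengthen fatty acids, had differences of -0.04, -0.05 and 0.02. Of the 13 genes of the branch, 9 had a lower, 3 a higher and 1 the same mean, and the median difference was -0.04. Uninduced array 2 alone was the highest array in 9 of the 13 (69.2%; 16.8% of all genes), and induced array 3 alone was the lowest in 4 (30.8%; 15.2% of all genes).

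**Figure D3:**
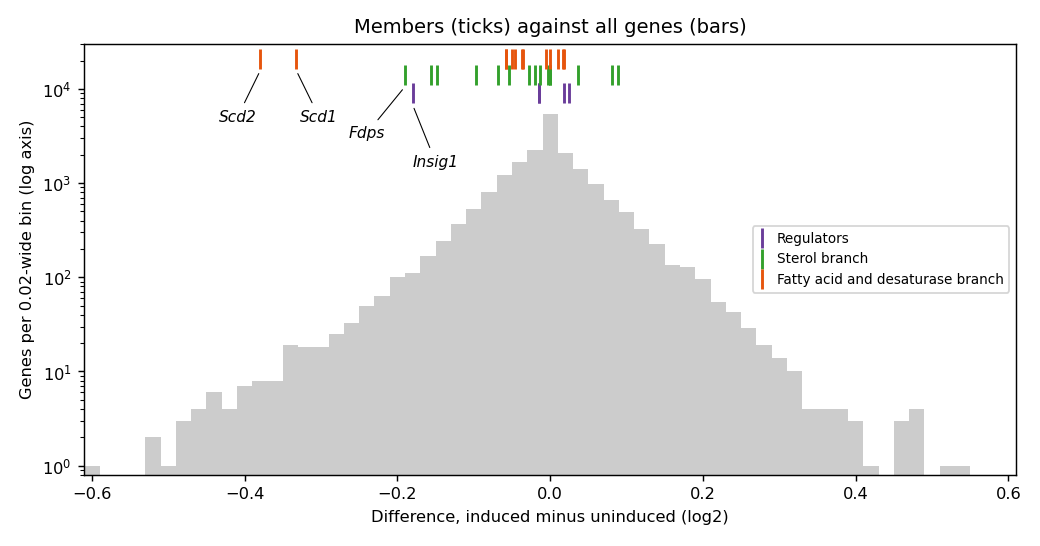
Log2 differences, induced minus uninduced, of all 19938 genes as a histogram (bins 0.02 wide, log vertical axis; 6 genes beyond 0.61 in size are not drawn) with the members of each group as ticks on top. Scd2 and Scd1 lie in the thin left tail, and most other members lie near 0.

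The branches were contrasted by their means on each array. The mean of the sterol branch was 6.85 and 6.85 on the uninduced and 6.83, 6.82 and 6.77 on the induced arrays, and that of the fatty acid and desaturase branch was 7.33 and 7.37 against 7.28, 7.28 and 7.27. The mean difference was -0.04 for the sterol branch and -0.07 for the other branch. Relative to its uninduced mean, the sterol minus fatty acid contrast was 0.02 and -0.02 on the uninduced and 0.06, 0.04 and 0.0033 on the induced arrays. Induced array 3 lay between the uninduced arrays. The contrast differed by 0.04 between groups, close to its SD of 0.03 among the uninduced and 0.03 among the induced arrays. Without Scd1 and Scd2, a setting chosen after seeing the data, the contrast differed by -0.02, and the mean of the remaining 11 genes differed by -0.02. Scd1 and Scd2 were the lowest genes of their branch, so leaving them out had to raise its mean. The contrast of -0.02 was within its SD, 0.026 among the uninduced and 0.024 among the induced arrays. A sign of the branch contrast is therefore not shown.

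**Figure D4:**
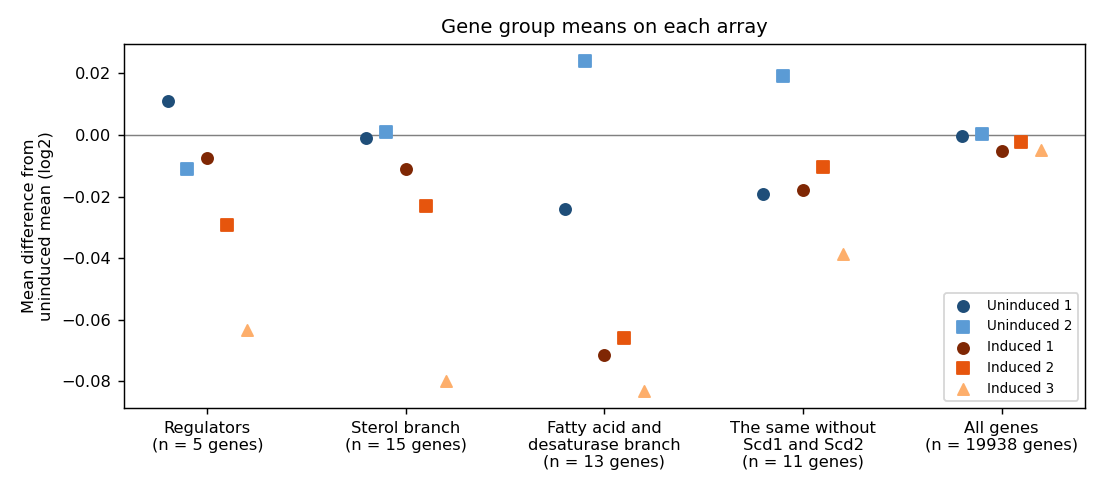
Mean difference from the uninduced mean (log2, vertical axis) of each gene group on the 5 arrays, with 1 symbol per array. The induced arrays of the fatty acid and desaturase branch lie near -0.07 to -0.08 with Scd1 and Scd2, and between -0.04 and -0.01 without them, where they overlap the uninduced arrays. Induced array 3 is the lowest array in every group drawn except all genes.

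Related lists around the pathway held 0 genes that passed, with 0 genes at an unadjusted p under 0.05 in each of the 8 lists. Of 9 other cholesterol synthesis enzymes, 6 means were lower and 2 higher, with Msmo1 at -0.07, Acat1 at -0.04, Coq2 at 0.03 and Ggps1 at 0.01. Of 8 genes of SREBP processing and turnover, 4 were lower and 3 higher in mean, with Erlin1 at -0.06, Syvn1 at -0.04, Rnf139 at 0.09 and Mbtps1, the protease that cuts SREBP in the Golgi, at 0.01. Of 13 genes of cholesterol uptake, transport and esterification, 7 were lower and 5 higher in mean. Npc1, which exports cholesterol from lysosomes, was at 7.16 and 7.26 against 7.12, 6.9998 and 7.07, a difference of -0.15 without overlap (adjusted p = 0.770, limma). Over all genes, 3.08% were lower without overlap. Osbp was at -0.05, Scarb1, a lipoprotein receptor gene, at 0.07 and Npc2 at 0.03.

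The oxysterol receptors LXR, which switch on cholesterol export, and their partners and targets gave 2 lower, 4 higher and 5 equal means among 11 genes. Lpcat3, a phospholipid remodelling enzyme, was at -0.05 without overlap, as 3.08% of all genes were lower. Plin2 was at -0.02, Abcg4 at 0.10 and Apoe at 0.03. Among 16 other elongation and desaturation enzymes, 8 were lower and 7 higher in mean. Hacd1, a dehydratase of fatty acid elongation, was at 6.32 and 6.49 against 6.29, 6.17 and 6.20. Its difference was -0.18 without overlap (adjusted p = 0.770, limma), while Scd4 was at -0.07, Mcat at 0.09 and Olah at 0.08. These genes were named by smallest p, and the highest difference in the list was 0.20, in another gene.

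Genes of supply, use and breakdown of fatty acids differed by little. Of 13 genes of acetyl-CoA, citrate and NADPH supply, 8 were lower and 3 higher in mean, with Idh1 and Slc25a1, the mitochondrial citrate carrier, each at -0.04, Pdha1 at 0.06 without overlap and Idh2 at 0.02. Of 18 genes of fatty acid activation and glycerolipid synthesis, 5 were lower and 11 higher, with Acsl5 at -0.05, Mboat2 at -0.01, Acsl4 at 0.09 and Lpin2 at 0.09. Of 19 genes of fatty acid oxidation, 9 were lower and 7 higher. Hadh was at -0.07 and Echs1 at -0.01, both without overlap, Acadl at 0.02 and Decr1 at 0.09. Over all genes, 3.08% were lower and 1.65% higher without overlap. The medians of the 8 lists lay between -0.02 and 0.01, against 0 for all genes.

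**Figure D5:**
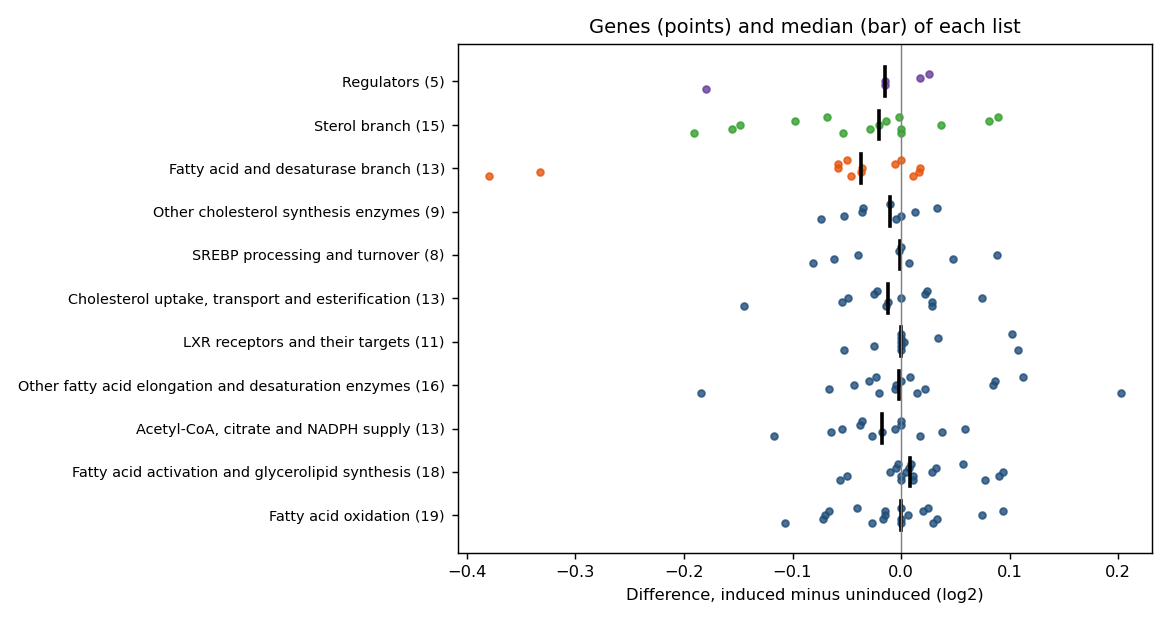
Log2 difference, induced minus uninduced, of each measured gene (points) and the median (bar) in the 3 member groups and 8 related lists, with the number of measured genes in brackets. The list medians lie between -0.04 and 0.01, and Scd2 and Scd1 are the points farthest from 0.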

How the data were processed

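RNA was measured on 5 arrays. The deposited values are log2 levels of 35557 probe sets, which the authors made with RMA, per the submitters' processing notes. The log2 scale was read from the values. The sources used here do not give software, probe grouping or build. Names came from the array's annotation table: 21789 probe sets had 1 gene symbol, 1621 several, and 12147 were not listed.

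The members and lists were chosen with earlier results of these data known. Groups came from the sample titles. Genes were tested with limma 3.58.1 in R 4.3.3 (lmFit, eBayes without trend) on all 19938 genes with no filter on low values, adjusted by Benjamini-Hochberg across the whole table, threshold 0.05. Exact ties made the prior SD small (0.0050; 0.086 from the 1800 genes with 5 distinct values), so the larger prior was an alternative. The code was tested on simulated data without ties, so that test does not cover the exact ties of these arrays. Other settings tried were averaged probe sets, a restriction to genes above the median level, median centring, repeated quantile normalization, a robust eBayes with trend, blocks by title number, a feeder marker covariate, untied genes alone, leaving out each array and, chosen after seeing the data, the fatty acid branch without Scd1 and Scd2.

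Every member was to be named, with values on all arrays for the regulators and for the 6 sterol and 5 fatty acid genes with the largest differences, and up to 2 genes per direction with the smallest p from each related list. The number of arrays limits the precision.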

Additional observations from a re-analysis of the deposited data

How the results depend on the processing

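Of 33 members, 13 kept their sign in all alternatives that tested them and 14 changed it in at least 1. Some alternatives alter only the spread or the genes tested, and these could not change a sign. The fit called 2 genes higher and 1 lower. It called 0 and 0 under 6 alternatives: restriction to the upper level range, median centring, repeated quantile normalization, the title number as a replicate block, the feeder covariate, and without induced array 3. The replicate block and the fit without induced array 3 give the same differences, as number 3 occurs only among induced arrays. The shared spread called 1 higher and 0 lower, and among the 3899 untied genes 1 was higher. Leaving out each array in turn moved the higher calls between 0 and 1051, the lower calls between 0 and 1097, and called members between 0 and 9. Members without overlap went from 3 to 18 (lower; 18.2% of all genes at the upper end, without uninduced array 1) and from 0 to 8 (higher; 14.5%, without uninduced array 2). With a lone uninduced array, only the induced arrays, often tied, give the spread of the fit. Without uninduced array 1, Mvd differed by 0.174, Idi1 by -0.112, Sc5d by -0.0988, Dhcr7 by -0.0371 and Fasn by -0.0194. Without uninduced array 2, these members had the opposite sign: Mvd at -0.0121, Idi1 at 0.0709, Sc5d at 0.0422, Dhcr7 at 0.0325 and Fasn at 0.009.

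Repeated quantile normalization gave 8 members lower and 5 higher without overlap, where it gave 8.35% and 10.9% of all genes; the cause was not tested. Leaving out arrays put the sterol median between -0.0779 and -0.0124 and the fatty acid median between -0.0609 and -0.0142. The medians were -0.123 and -0.332 among untied genes, which hold 6 and 3 of these members. The branch contrast lay between 0.0123 and 0.0587 when arrays were left out, and was 0.127 among untied genes, 0.085 with the feeder covariate and -0.0159 without Scd1 and Scd2. Same-numbered arrays were not shown to be paired: deviations from the group means correlated at -0.0063 and 0.0063. With the replicate block the contrast was 0.0515, the same value as without induced array 3, and no member passed.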
